A study of Mus musculus with 3 samples.

Results

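Promoter peaks of protein-coding genes are the GATA4 peaks that HOMER, an annotation program, placed in its promoter-TSS class and credited to a protein-coding gene, where TSS is the transcription start site. They were found by those 2 columns of the deposited annotation and joined to the peak table by peak name, which gave 7853 of 50869 peaks, or 15.4% (exact 95% interval 15.1 to 15.8). The peaks came from chromatin immunoprecipitation and sequencing of stomach mucosa from adult mice of 10 to 12 months. The pull-down group comprised 2 GATA4 libraries, taken with streptavidin beads, and they were compared with 1 input library with no pull-down. All 3 libraries came from mice of the strain G4fb/fb R26 Bira/Bira, which carry Flag- and biotin-tagged GATA4 and the BirA biotin ligase, so the input had the tag and the ligase too. No library from mice without the tag was analysed here, and peaks are read as enrichment over input. The sources used here do not state whether libraries came from single or pooled animals. Mucosa holds many cell types, and binding in a few cells cannot be told apart from weak binding in many.

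The authors' peak caller pooled both pull-downs, so each peak has 1 fold enrichment, which is the authors' value for pull-down over local input, and no replicate error. After removal of repeated positions the pull-downs held 38770530 tags and the input 23023152. No replicate could be compared with another, and no test between samples was possible. Fold differences below are descriptions of 1 pooled list. Where a 95% interval is given beside a fold it is the exact Poisson interval of the tags at the summit with the input held fixed, and where one is given beside a share it is the exact Clopper-Pearson interval. These intervals cover counting error only.

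A promoter is the stretch of DNA around a TSS where RNA polymerase II and the general transcription factors assemble. Many mammalian promoters lie in CpG islands, stretches rich in the CG dinucleotide that stay unmethylated and open in most tissues. GATA4 is a zinc-finger factor of endoderm and heart that binds the letters GATA, most strongly with A or T before them and A or G after them, and it is needed for gastric epithelium to form. GATA factors are best known for binding enhancers far from genes, but they also bind promoters.

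To show what DNA lies at the strongest promoter peaks, the RefSeq promoters of 7 of them are printed below, 5′ to 3′ on the gene's strand, in build GRCm38.p6. Each window runs from 250 bases before the TSS to 50 bases from it on. The peaks are on build mm9, so a window is matched to its peak by gene and not by coordinate. The first 4 are the highest-fold genes whose single RefSeq promoter holds a GATA site on either strand, and capitals mark that site. The forms searched were AGATAA, then AGATAG with a final G, and with an initial T both TGATAA and the form TGATAG.
Ap5s1: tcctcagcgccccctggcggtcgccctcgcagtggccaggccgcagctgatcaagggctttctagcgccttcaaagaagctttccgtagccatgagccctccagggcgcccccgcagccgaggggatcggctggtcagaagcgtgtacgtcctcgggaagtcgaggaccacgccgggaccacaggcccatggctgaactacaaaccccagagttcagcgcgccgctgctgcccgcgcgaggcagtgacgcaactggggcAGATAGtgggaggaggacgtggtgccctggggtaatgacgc
BC003965: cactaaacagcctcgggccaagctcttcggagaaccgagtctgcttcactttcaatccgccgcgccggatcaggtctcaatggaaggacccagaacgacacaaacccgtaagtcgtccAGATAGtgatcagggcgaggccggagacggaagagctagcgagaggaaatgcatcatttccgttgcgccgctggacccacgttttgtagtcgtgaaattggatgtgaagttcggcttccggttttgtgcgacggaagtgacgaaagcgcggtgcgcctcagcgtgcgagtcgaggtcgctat
Npc2: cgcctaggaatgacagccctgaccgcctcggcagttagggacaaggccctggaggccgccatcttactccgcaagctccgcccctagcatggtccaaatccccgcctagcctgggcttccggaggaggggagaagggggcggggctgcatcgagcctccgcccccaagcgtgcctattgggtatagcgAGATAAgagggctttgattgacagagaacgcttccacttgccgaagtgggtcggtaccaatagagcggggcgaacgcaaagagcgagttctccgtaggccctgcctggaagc
Med26: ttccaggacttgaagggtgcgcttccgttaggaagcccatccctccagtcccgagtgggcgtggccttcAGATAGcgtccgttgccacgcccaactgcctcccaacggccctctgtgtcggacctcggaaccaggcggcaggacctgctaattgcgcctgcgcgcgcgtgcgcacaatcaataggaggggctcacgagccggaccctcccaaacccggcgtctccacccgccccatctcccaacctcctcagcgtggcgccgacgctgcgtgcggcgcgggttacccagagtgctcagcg

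The Ap5s1 window is chr2:131210110-131210409 on the plus strand, that of BC003965 chr17:25184311-25184610 on the plus strand, that of Npc2 chr12:84773063-84773362 on the minus strand and that of Med26 chr8:72548261-72548560 on the minus strand. Each of the 4 windows held 1 GATA site, read on the strand of the gene. Its first base lay at −132 from the TSS in BC003965, at −62 in Npc2 and at −181 in Med26, and in Ap5s1 9 bases past it, with the TSS base counted as 0. In Npc2 the site was AGATAA, and in the other 3 it was AGATAG.

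The next 3 are the highest-fold genes whose single RefSeq promoter holds no GATA core on either strand, and so they have no capitals. They are shown because strong peaks also lay at such promoters: Cdc42bpb and Kmt2a rank above all of the first 4 by fold, and Cltc below them.
Cdc42bpb: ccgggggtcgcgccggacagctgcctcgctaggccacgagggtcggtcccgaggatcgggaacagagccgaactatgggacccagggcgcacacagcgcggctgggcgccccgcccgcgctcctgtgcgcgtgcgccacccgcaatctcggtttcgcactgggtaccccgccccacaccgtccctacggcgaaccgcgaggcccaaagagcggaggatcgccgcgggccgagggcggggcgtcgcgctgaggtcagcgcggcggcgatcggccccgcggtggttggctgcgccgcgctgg
Kmt2a: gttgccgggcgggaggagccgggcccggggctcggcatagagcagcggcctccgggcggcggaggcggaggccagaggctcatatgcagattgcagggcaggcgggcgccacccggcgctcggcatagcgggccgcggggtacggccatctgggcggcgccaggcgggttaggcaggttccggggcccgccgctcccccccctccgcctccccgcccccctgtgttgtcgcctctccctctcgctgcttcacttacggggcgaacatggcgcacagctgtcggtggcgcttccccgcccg
Cltc: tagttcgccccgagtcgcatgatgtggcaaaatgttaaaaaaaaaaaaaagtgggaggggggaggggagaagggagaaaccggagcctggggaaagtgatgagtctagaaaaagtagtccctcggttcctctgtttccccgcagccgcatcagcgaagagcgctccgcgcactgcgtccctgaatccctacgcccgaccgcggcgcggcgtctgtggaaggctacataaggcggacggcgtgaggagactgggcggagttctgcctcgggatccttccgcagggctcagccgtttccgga

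These windows are all on the minus strand, at chr12:111377669-111377968 for Cdc42bpb, chr9:44881240-44881539 for Kmt2a and chr11:86757518-86757817 for Cltc. The first has 75.7% G and C, the second 75.7% and the third 59.7%. All 3 hold GGGCGG, the GC box that Sp factors bind, and Kmt2a and Cltc also hold CCGGAA, the core of sites for ETS factors. Of the first 4 windows, Npc2 and Med26 hold GGGCGG too, and BC003965 and Npc2 hold CCGGAA. Over all promoters with a peak the shares were 72.7% for GGGCGG and 28.7% for CCGGAA. A match of letters is a description and not a bound site.

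The highest promoter peak was at Cdc42bpb, which encodes a kinase that acts downstream of the polarity GTPase Cdc42. It lay on mm9 chromosome 12 (112615380 to 112616414), was centred 32 bp downstream of the TSS and reached 20.05-fold (95% interval 16.4 to 24.3), from 99 pull-down tags at its summit. It was 12th by fold in the whole list, so 11 peaks outside the protein-coding promoters ranked above it. Kmt2a, the gene of a histone H3 lysine 4 methyltransferase, followed at 18.5-fold (15.0 to 22.7; chromosome 9, 44688540 to 44690319). Ap5s1, which encodes a subunit of an adaptor complex of endosomes, reached 18.3-fold (14.7 to 22.4; chromosome 2, 131035728 to 131036472). BC003965, a gene known by its cDNA number, reached 17.7-fold (14.2 to 21.7).

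Next came Smad5, which carries signals from BMP receptors to the nucleus, at 17.3-fold (13.9 to 21.3; chromosome 13, 56804194 to 56805081). Npc2, whose product moves cholesterol out of lysosomes, reached 15.97-fold (chromosome 12, 86113600 to 86114590). Fbxo11, a ubiquitin ligase subunit gene, and Sde2 both reached 15.7-fold, from 80 tags each. Ctnnb1, which encodes the adherens junction and Wnt protein β-catenin, also reached 15.7-fold. The 12 highest were completed by the tubulin-modifying enzyme gene Ttll11 (15.5-fold), the mitochondrial carrier gene Slc25a23 (15.2-fold) and Med26 (15.2-fold), which encodes a subunit of the Mediator complex. The Poisson intervals of all 12 overlapped, so counting error alone does not fix their order. Cltc, the clathrin heavy chain gene whose promoter is printed above, reached 14.7-fold.

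**Figure D1:**
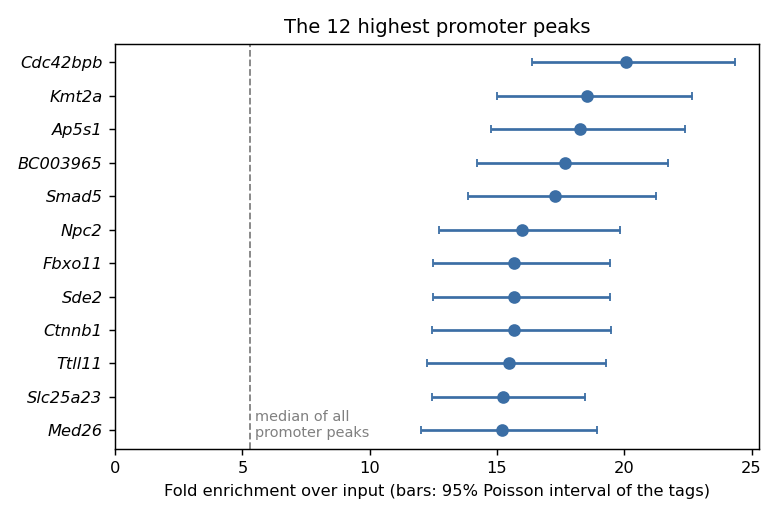
Fold enrichment over input of the 12 highest promoter peaks, 1 point per peak, with bars for the 95% Poisson interval of the summit tags and a dashed line at the median of all promoter peaks (5.30-fold). The points lie between 15.2-fold and 20.05-fold, and all bars overlap each other and lie above the line.

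Height in tags put nearly the same peaks first. Of the 8 highest pileups, 6 belonged to the peaks just named, led by Slc25a23 at 59.98 scaled tags (101 tags before scaling), where the local input was higher and the fold therefore lower. The others were 4931408C20Rik and Mrps17, which encodes a protein of the mitochondrial ribosome. At 4931408C20Rik the pileup of 76.01 scaled tags was the highest of all promoter peaks, but the input level plus 1 was 21.0 there, and the fold was 3.67 (3.07 to 4.35). At Mrps17 the pileup was 53.4 and the fold 10.9. The 3 longest promoter peaks were at Zswim6 (3003 bp, 9.50-fold), at Ubtf, which encodes a factor of RNA polymerase I (2862 bp, 6.19-fold), and at Tigd5 (2727 bp, 4.95-fold), whose peak the annotation places in the promoter of the neighbour Eef1d.

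Most promoter peaks were far lower than these. Their median fold was 5.30 (quartiles 4.32 and 6.66), their lowest 2.06 and their highest 20.05, and 198 peaks, 2.52%, reached 10-fold. The median pileup was 16.6 scaled tags, or 28 tags before scaling (quartiles 22 and 35). The lowest folds, named after their values were seen, were at Marchf5 (2.06), the proteasome gene Psmc3 (2.28) and Gm10354 (2.36), all over a raised input. At 63.5% of the promoter peaks the input lay at its genome-wide floor, where fold is pileup plus 1 over 2.98. Fold and length moved together across the 7853 peaks (Spearman's rho 0.60), which come from the same pooled libraries and are not independent.

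Promoter peaks were higher and longer than intergenic peaks within 10 kb of a TSS and slightly lower and shorter than peaks in 5′ untranslated regions. Their median fold of 5.30 stood against 4.89 in the 603 promoter peaks of noncoding transcripts, 5.59 in the 1880 peaks of 5′ untranslated regions, 4.32 in the 3175 intergenic peaks within 10 kb of a TSS and 4.37 in all peaks. Their median length was 454 bp (quartiles 275 and 707), against 351 bp, 594.5 bp, 247 bp and 268 bp in those groups, named in the same order. Promoter peaks of 1 kb or more numbered 778, or 9.91%, against 17.1% of peaks in 5′ untranslated regions and 4.03% of all peaks. Of the top 10% of all peaks by −log10 q-value, 36.8% were promoter peaks of protein-coding genes, against their 15.4% of the list. That top 10% held 23.9% of the promoter peaks and 30.3% of the peaks in 5′ untranslated regions. None of these differences could be tested with 1 pooled list.

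**Figure D2:**
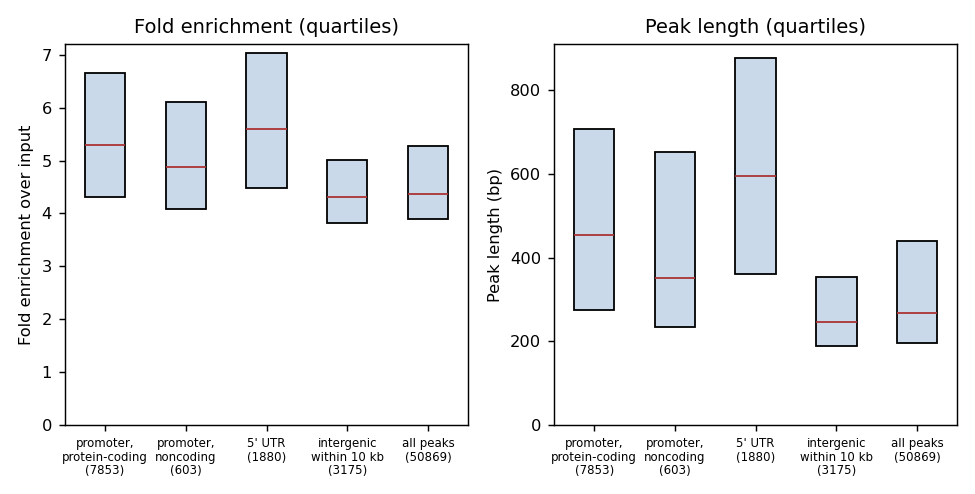
Boxes give the quartiles and red lines the medians of fold enrichment over input (left) and peak length in bp (right), for promoter peaks of protein-coding genes and then for 3 other classes and all peaks, with the number of peaks in brackets. The protein-coding promoter box lies above the box of intergenic peaks within 10 kb in its median on both axes (5.30-fold against 4.32-fold, 454 bp against 247 bp). It lies below the 5′ untranslated box (5.59-fold, 594.5 bp).

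Most of the peaks lay at the TSS. The median distance of the centre from the TSS was 4 bp upstream, 57.9% of peaks were centred within 100 bp of it, and at 73.7% the peak interval reached the TSS. HOMER by default counts a peak as promoter when its centre lies between 1 kb before and 100 bp after a TSS, so the drop in number beyond 100 bp downstream is made by the rule. Fold was highest at the TSS. The median was 4.52 in the 689 peaks centred from −1000 to −500 bp, 4.87 in the 987 from −500 to −200 bp, 5.45 in the 1603 within the 100 bp before the TSS and 5.59 in the 2946 from the TSS to 100 bp after it. Median length was 274 bp in the most distant of these bins, 331 bp in the next, 517 bp from −200 to −100 bp, 510 bp in the 100 bp before the TSS and 504 bp in the last. The share at 10-fold or more was 1.31% in the most distant bin and between 2.33% and 2.81% in the bins from −500 bp on, with 2.65% in the last.

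**Figure D3:**
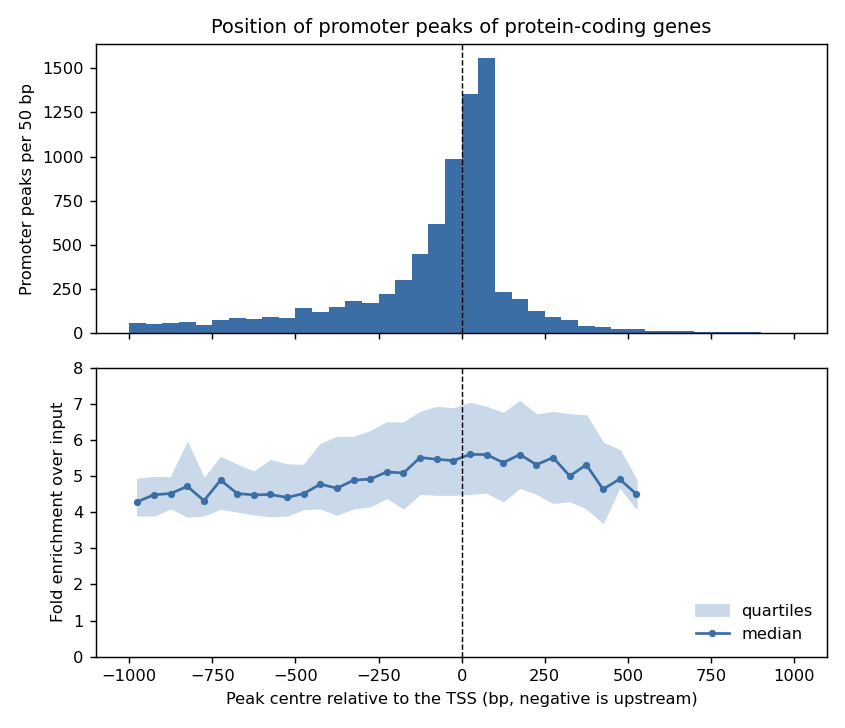
Number of promoter peaks per 50 bp (top) and fold enrichment over input, as the median with quartiles of each bin of 20 or more peaks (bottom), by position of the peak centre relative to the TSS in bp. Peaks pile up at the TSS, with 2946 of 7853 between the TSS and 100 bp downstream, and the median fold is highest there and about 1 unit lower at the upstream end.

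Peaks centred over 100 bp downstream numbered 879, and 694 of them entered through another gene. There the class came from a transcript of a neighbour, while the peak was credited to the gene of the nearest TSS. In all, 1028 promoter peaks (13.1%) lay in a promoter annotated to another gene than the credited one, 808 of them to another protein-coding gene and 187 to a long noncoding RNA. The peak credited to Mcm7, of the replicative helicase, is such a case (12.8-fold, 669 bp downstream, in the promoter of Ap4m1).

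The promoter peaks reached 7109 genes, 7096 of them among the 21031 protein-coding genes that the RefSeq table lists with a curated transcript. That is 33.7% of those genes with a promoter peak, and 0.941% with a promoter peak of 10-fold or more. The share depends on the class boundary, because 4981 further genes had no promoter peak but a peak within 1 kb of the TSS in another class. The strongest of these was in an intron at 1741 genes, an exon at 1626 and a 5′ untranslated region at 1397. With all classes, 57.4% of the genes had a peak within 1 kb. A single promoter peak was found at 6451 genes (90.7%), 2 at 593 and 3 or more at 65.

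The 3 genes described here for their many promoter peaks carried them at several annotated start sites. Plec, which encodes the cytoskeletal linker plectin, had 8, each annotated to a different transcript, between 76025695 and 76062837 on chromosome 15. They ranged from 3.05-fold to 9.50-fold, and the highest (7.04 to 12.6) lay at 76059530 to 76060175. Sorbs3, which encodes the adhesion protein vinexin, had 7 at 4 transcripts on chromosome 14. One of them (70605516 to 70606683) reached 11.3-fold (8.59 to 14.6), and the other 6 ranged from 3.52-fold to 6.47-fold. Dab2ip, a Ras GTPase-activating protein gene, had 5 at 3 transcripts on chromosome 2, of which 1 at 35547145 to 35547964 reached 10.5-fold (7.90 to 13.7) and the rest at most 5.71-fold. Rap1gap also had 5. In both Sorbs3 and Dab2ip the lower bound of the highest peak lay above the fold of every other promoter peak of the gene.

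Genes that share a promoter with a divergent neighbour carried a promoter peak more often than others. A protein-coding neighbour transcribed in the opposite direction from a TSS at most 1 kb away was found for 1457 of the 16853 genes in the promoter table. Of these, 865 or 59.4% (56.8 to 61.9) had a promoter peak, against 4910 of 15396 other genes, or 31.9% (31.2 to 32.6). Each peak is credited to 1 gene of a pair: of 735 pairs, 680 (92.5%) had a promoter peak at one gene or the other, and 194 at both. No share was counted for pairs of other genes, so the 92.5% has none to be read against. With any peak within 1 kb the shares were 63.3% and 56.9%. The class rule favours divergent genes, because a peak over 100 bp downstream of one gene counts when it lies in the neighbour's promoter. The part of the rule in the difference was not tested, nor was that of CpG content, which is described below. Fold did not follow, with a median strongest fold per gene of 5.51 in divergent genes and 5.48 in the others.

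Most of the genes listed as GATA and FOG factors or as foregut transcription factors had promoter peaks. Among the GATA and FOG factor genes 7 of 8 had one, against 33.7% of all protein-coding genes. Gata4 itself reached 8.70-fold (6.36 to 11.6; chromosome 14, 63863940 to 63864722), Gata5 7.06-fold, Gata2 6.31-fold, the FOG cofactor genes Zfpm1 5.51-fold and Zfpm2 4.72-fold, Gata6 4.32-fold and Gata3 3.50-fold. Gata1, the erythroid member, had none. The Gata6 peak lay 517 bp upstream, and a peak over its TSS is credited to a noncoding antisense transcript and so is not counted. The lists used here and below were drawn up with earlier results of these data known, so their counts are descriptions.

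Of 33 genes listed as foregut transcription factors, which take in Cdx1 of the intestinal list, 26 had a promoter peak (78.8%, 61.1 to 91.0). They were led by Runx1, a Runt-domain factor (13.4-fold; chromosome 16, 92697391 to 92698522), Isl1, a LIM homeobox factor (10.9-fold), and Ovol1, a zinc-finger regulator of epithelia (10.1-fold). Barx1, Ehf and Foxq1 were among the 7 without one. Of 24 genes of epithelial structure 18 had one (75%, 53.3 to 90.2), among them Ctnnb1 (15.7-fold) and Ezr, which encodes the microvillus linker ezrin (10.5-fold). The claudin gene Cldn18, named after its value was seen, reached 8.70-fold, and Ctnnd1, Dsp and Esrp2 had none. The median fold was 6.99 in this list and 5.45 over the strongest promoter peaks of all 7096 genes; in foregut factors it was 5.45, the same median as over all genes.

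Genes of basic cell machinery had promoter peaks at shares of 28.6% to 66.0%, against 33.7% of all genes. The highest share was in chromatin-modifying enzymes (33 of 50), led by Kmt2a and the methyltransferase genes Setd1a (11.1-fold) and Kmt2d (9.83-fold), while Dot1l, Ehmt1 and Ezh1 had none. In cell cycle and DNA replication the count was 28 of 48, with Mcm7 first, then E2f3 (9.69-fold) and the retinoblastoma gene Rb1 (8.84-fold), with none at Aurkb, Bub1 or Ccna2. Of the cytosolic ribosomal protein genes, a family with many processed copies, 49 of 85 carried one, first among them Rpl13 (12.5-fold) and Rps12 (9.44-fold). Mediator subunits had one at 17 of 30, with Med13l (9.10-fold) and Med17 (7.70-fold) after Med26.

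RNA polymerase II and general factors had one at 30 of 53, led by Gtf2h5 (11.1-fold) and Polr2a (10.6-fold), the gene of the largest polymerase subunit. The Gtf2h5 peak was centred 13 bp downstream of its own TSS but annotated to the promoter of the neighbour Serac1. This list, drawn by symbol, also takes in Taf1a, Taf1b, Taf1c and Taf1d of an RNA polymerase I factor, and Gtf2i and its relatives. Mitochondrial ribosomal proteins had one at 44 of 78, with Mrpl35 (9.69-fold) and Mrpl17 (8.90-fold) after Mrps17, and oxidative phosphorylation genes at 49 of 96. Among oxidative phosphorylation genes Ndufa9 reached 11.4-fold and Ndufa13 10.5-fold, both of complex I. Splicing factors had one at 26 of 48, led by Srsf2 (9.50-fold), and translation initiation factors at 27 of 56, led by Eif3d (14.5-fold) and Eif4a3 (9.80-fold). The translation list also takes in the Eif2ak kinase and Eif4ebp repressor genes. Ubiquitin-conjugating enzymes had one at 17 of 37, among them Ube2m (8.10-fold), and proteasome subunits at 17 of 39, led by Psmd5 (8.30-fold). Aminoacyl-tRNA synthetases had one at 7 of 20, led by Tars (10.9-fold), and Integrator subunits at 4 of 14, led by Ints13 (8.25-fold). The last 2 shares lie near that of all genes.

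Of the stomach's own secretory cells, pit mucous cells, which coat the surface, had a promoter peak at 8 of the 14 genes listed for them (57.1%, 28.9 to 82.3), against 33.7% of all genes. They were led by the gastrokine gene Gkn1 (7.86-fold; chromosome 6, 87300860 to 87301553), Mucl3 (7.5-fold) and the mucin gene Muc1 (6.11-fold), and Gkn2 had 5.68-fold, Psca 4.52-fold, Tff2 4.32-fold, Capn9 4.32-fold and Tff1 4.12-fold. Anxa10, Capn8 and Ctse had none, and Muc5ac had a peak within 1 kb in another class only. The list counts Tff2 and Gkn3 as pit genes, and whether its members are restricted to pit cells was not tested. Neck and antral gland cells had one at 6 of 12 genes (50%, 21.1 to 78.9), led by Creb3l1 (6.85-fold) and the water channel gene Aqp5 (6.51-fold). Chief cells had one at 3 of 10 (30.0%, 6.67 to 65.2), and the intervals of all 3 lists include the share of all genes. In chief cells these were the pepsinogen gene Pgc (7.46-fold, 95 bp upstream; chromosome 17, 47863392 to 47864001), the secretory regulator Bhlha15 (5.31-fold) and Rab26 (3.92-fold).

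Parietal cells, which make acid, had a promoter peak at 6 of 20 genes, close to the 33.7% of all genes. These were the potassium channel gene Kcnq1 (7.52-fold), the muscarinic receptor gene Chrm3 (5.48-fold), the anion exchanger gene Slc4a2 (5.10-fold), Atp4b of the proton pump (4.89-fold), the histamine receptor gene Hrh2 (4.69-fold) and Slc12a2 (3.41-fold). Aqp4, Atp4a and Car2 were among those without. Endocrine cells had one at 3 of 18, at Isl1, Pax6 (5.88-fold) and Insm1 (5.11-fold).

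Among markers of other cell types the share with a promoter peak ran from 5.0% in squamous forestomach to 33.3% in smooth muscle, against 33.7% of all genes. Squamous forestomach had one at 1 of 20, Pitx1 (4.52-fold), neurons and glia at 1 of 15, Tubb3 (5.51-fold), and cardiomyocytes at 1 of 15, Hand2 (4.11-fold). Immune cells had one at 2 of 21, Gata2 and Gata3, and hepatocytes at 2 of 20, Apoa2 (4.69-fold) and Apoc3 (3.72-fold). Fibroblasts had one at 3 of 15, led by Fbln1 (7.90-fold), endothelial cells at 4 of 15, led by Flt1 (4.49-fold), and smooth muscle at 5 of 15, led by Tpm1 (6.87-fold). In the intestinal list it was 6 of 27, with the guanylin gene Guca2a first (9.30-fold). Cytokine, chemokine and interferon genes had one at 10 of 103, led by Ifngr1 (10.1-fold) and Ifnar1 (5.45-fold), interferon receptors that the symbol pattern of this list also takes in. Of 1457 olfactory and vomeronasal receptor genes 0 had one, which allows a share of up to 0.25% (exact upper limit).

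**Figure D4:**
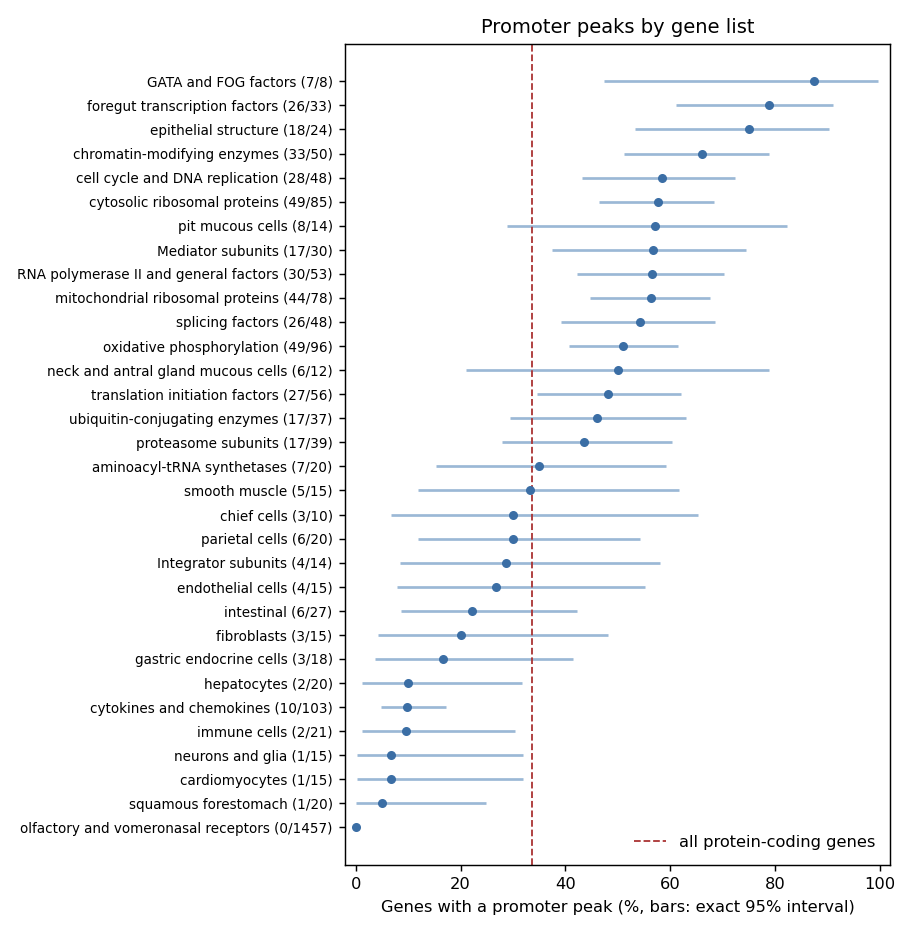
Percent of genes with a promoter peak in each of 32 gene lists, as points with exact 95% intervals and the counts in brackets; the dashed line marks all protein-coding genes (33.7%). GATA and FOG factors, foregut transcription factors and epithelial structure lie farthest to the right (87.5%, 78.8% and 75%), and receptors of smell lie at 0.

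The genes with promoter peaks had CpG-rich promoters. Sequence was read for the 14153 genes with exactly 1 RefSeq promoter in the table, 4404 of them with a promoter peak. Their median ratio of observed to expected CG was 0.80 (quartiles 0.65 and 0.93), against 0.36 (0.15 and 0.73) in genes with no promoter peak, and the median GC content was 63.7% against 52.0%. A ratio of 0.6 or more was found in 80.8% of promoters with a peak and 34.3% of those without. Genes with no promoter peak but a peak within 1 kb in another class were at 71.0%, with a median ratio of 0.74, and genes with no peak within 1 kb at 15.3%, with a median ratio of 0.22. Turned round, 3558 of 6898 CpG-rich promoters had a promoter peak (51.6%), against 11.7% of the promoters under that ratio. The median CpG ratio was 0.73 at peaks under 4-fold, 0.91 at 8 to 10-fold and 0.88 at 10-fold or more.

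This difference touches the gene lists too. Of the 46 CpG-rich ribosomal protein promoters 26 had a peak (56.5%), and of 61 in mitochondrial ribosomal proteins 37 (60.7%), near the 51.6% of all CpG-rich promoters. In chromatin-modifying enzymes it was 18 of 28. Other lists lay farther from that share. Foregut factors had a peak at 10 of 11 CpG-rich promoters and Mediator subunits at 15 of 20. Integrator subunits had one at 2 of 8 and endocrine cells at 1 of 8. All 8 promoters of the pit mucous list in the table were CpG-poor, and 5 of them had a peak (62.5%), against 11.7% of all CpG-poor promoters. In epithelial structure 5 of 6 CpG-poor promoters had one, and in foregut factors 4 of 5, while among CpG-rich promoters of epithelial structure it was 2 of 5. The other stomach cell lists had lower CpG-poor counts, with 1 of 4 in neck and antral gland cells and 2 of 6 in chief cells. It was 1 of 5 in parietal cells and 0 of 4 in endocrine cells. Of other CpG-poor promoters, smooth muscle had one at 3 of 8 and intestinal genes at 3 of 17, while squamous forestomach had one at 0 of 11, hepatocytes at 0 of 13 and cardiomyocytes at 0 of 10. The part of CpG content in these shares was not tested further.

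A GATA site was found less often in promoters with a peak than without one, except in the highest peaks. The site, in any of its 4 forms and on either strand, was in 699 of 4404 promoters with a peak (15.9%, 14.8 to 17.0). It was in 3133 of 9749 with none (32.1%, 31.2 to 33.1) and in 27.1% of all 14153 promoters of the same length. Of the genes with no promoter peak, those with a peak within 1 kb in another class held it in 18.2% (16.9 to 19.6) and those with no peak within 1 kb in 39.3%. TATAAA, the TATA box, was in 5.52% with a promoter peak and 18.1% without. Within CpG-rich promoters the GATA site was in 13.5% of those with a promoter peak and 15.1% of those without, and within CpG-poor promoters in 25.9% and 41.0%. The part of base composition was not tested further.

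At 10-fold or more, however, the site was in 39 of 116 promoters (33.6%, 25.1 to 43.0), against 15.4% of the 4288 promoters with a lower peak. Along fold classes the share was 16.1% under 4-fold, 16.9% at 4 to 5-fold, 15.7% at 5 to 6-fold, 14.0% at 6 to 8-fold and 13.1% at 8 to 10-fold, so there was no gradual rise below 10-fold. These finer classes were chosen after the values were seen. Of promoters at 10-fold or more 92.2% were CpG-rich, against 93.5% at 8 to 10-fold, and the site was in 33 of those 107 (30.8%, 22.3 to 40.5), against 11.4% of CpG-rich promoters at 8 to 10-fold. AGATAA alone was in 12.9% of promoters at 10-fold or more (7.42 to 20.4) and 3.27% at 8 to 10-fold. In genes with no promoter peak it was in 12.4%, and in those with no peak within 1 kb in 15.6%. The highest class thus lay near the former and below the latter, but both groups hold fewer CpG-rich promoters. Among CpG-rich promoters alone, AGATAA was in 11 of 107 at 10-fold or more (10.3%). It was in 5.21% of those with no promoter peak and 5.57% of those with no peak within 1 kb.

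The TATA box, CCAAT and the GC box showed no step of this size. At 8 to 10-fold and at 10-fold or more, TATAAA was in 5.72% and 4.31%, CCAAT, the box of NF-Y, in 30.0% and 36.2%, and GGGCGG in 83.1% and 74.1%. Over all genes with a promoter peak and over those with none, GGGCGG was in 72.7% and 35.1%, CCGGAA in 28.7% and 15.2%, GCGCATG, part of the NRF1 site, in 6.81% and 4.03%, TGACGTC, the cyclic AMP response element, in 5.97% and 3.23%, and the E-box CACGTG in 11% and 6.57%. AAGATGG, the YY1 core, was in 7.22% and 6.28%, and TGANTCA, the AP-1 site, in 3.84% and 8.76%. All were searched on both strands. The bare core GATA, which each GATA site contains, was in 39.6% and 60.5%.

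**Figure D5:**
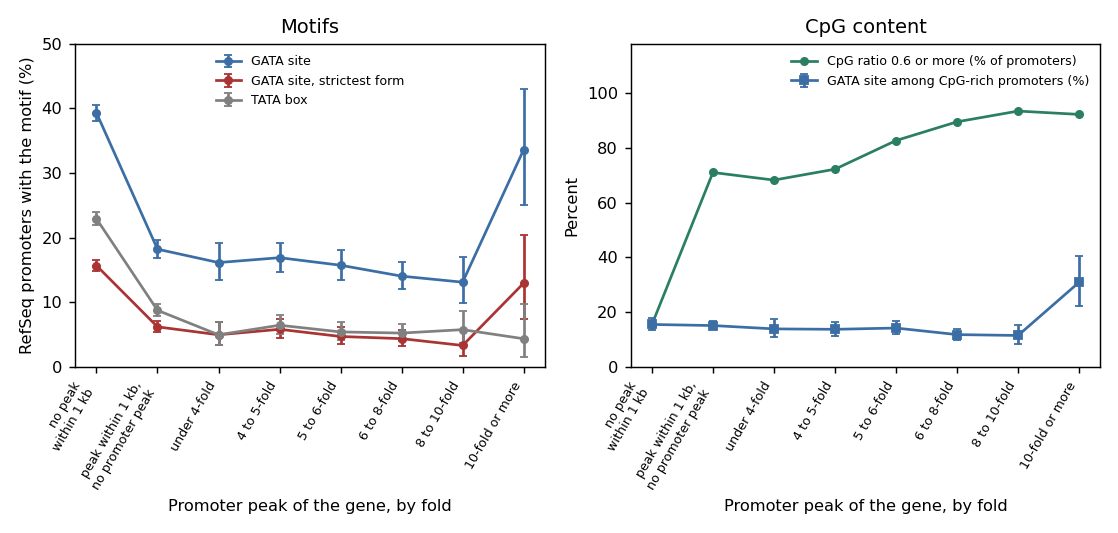
Percent of RefSeq promoters, 1 per gene, that hold a motif (left; GATA site, its strictest form and TATA box) and percent that are CpG-rich or, among CpG-rich promoters, hold a GATA site (right), by fold of the gene's promoter peak; bars are exact 95% intervals. The GATA site stays between 13.1% and 16.9% in the classes under 10-fold and stands at 33.6% in the class of 10-fold or more, while the TATA box does not step up there.

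In the promoters of 10-fold or more the GATA site lay along the whole window. In bins of 50 bp it was found in 4 to 8 of the 116 promoters. From −250 bp on, the shares were 5.17%, 6.90%, 6.90%, 6.90%, 3.45% and, in the 50 bp after the TSS, 6.90%. Promoters with no peak held it at 8.67%, 7.78%, 7.96%, 6.59%, 5.70% and 4.38% in the same bins, and all promoters with a peak at 4.02%, 3.86%, 3.61%, 2.82%, 2.11% and 1.41%. Besides the 4 printed above, the 39 genes with a site included Ticam1, an adaptor gene of Toll-like receptor signalling (15.1-fold), Ift46, of cilium transport (13.8-fold), Tigar, of sugar metabolism (13.7-fold), and Id3, an inhibitor of bHLH factors (13.2-fold), named after their values were seen. The remaining 77 of the 116 promoters held none in this window, Cdc42bpb and Kmt2a among them.

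Many genes with a promoter peak had a further GATA4 peak outside the promoter. Of 7096 genes, 3627 (51.1%, 49.9 to 52.3) had at least 1 other peak credited to them 1 to 50 kb from the TSS, against 38.5% (37.7 to 39.4) of genes with no promoter peak. The genes without one were of 2 kinds: 50.8% (49.4 to 52.2) of those with a peak within 1 kb in another class had a further peak, close to the share beside promoter peaks, and 31.7% of those with no peak within 1 kb. Genes with 3 or more such peaks made up 18.4% of those with a promoter peak, 16.3% of those with another peak within 1 kb and 5.91% of those with none. Genes with a promoter peak were also longer, with a median of 23594.5 bp against 15114 bp in those without one and 24973 bp in those with a peak within 1 kb in another class, and the part of length was not tested. The share was alike along promoter fold: 52.1% of genes in the lowest quartile of promoter fold and 49.6% in the highest had a further peak. Where a gene had both, the promoter peak was the higher in 2284 of 3627 genes (63.0%), with medians of 5.43 for the promoter and 4.70 for the best further peak.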

How the data were processed

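Per the file headers, MACS2 (2.1.0.20140616) pooled both GATA4 pull-downs into 1 set, called peaks over the one input at a q-value of at most 0.05 and kept 1 tag per position. It scaled the pull-down by 0.594 to the input and extended tags to 161 bp. Bowtie2, HOMER and build mm9 are named per the submitters' processing notes. The deposited tables give a pileup signal, a fold enrichment (a ratio of pull-down plus 1 to input plus 1, by the authors' caller), −log10 p- and q-values, and HOMER's score, which was 10 times the −log10 q-value. The headings of both −log10 columns were lost in the deposited table and were read from the caller's column order and that score. The depth of each pull-down alone is unknown, since the headers give the pooled 38770530 tags.

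From there, tags were recovered as pileup over the scaling factor, and input plus 1 as pileup plus 1 over fold. Gene names, types and neighbours came from a RefSeq table of GRCm38.p6 by Entrez ID, and promoter sequences from RefSeq for 80.1% of genes. Named genes followed a fixed rule: the 12 highest folds, 8 highest pileups, 3 longest peaks, 3 genes with most promoter peaks and up to 3 leading and 3 lacking members of each list; others named are said to be so chosen or complete a count. Some leading members are not reported here. The peaks and lists were chosen with earlier results of these data known. Motif search was tested on simulated sequences. Python 3.11.15, pandas 2.3.3 and SciPy 1.17.1 were used. Alternatives were a stricter q-value, a window by distance, another gene type, 1 peak per gene, other motifs and other limits.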

Additional observations from a re-analysis of the deposited data

How the results depend on the processing

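Of 45 combinations of a result with an alternative, 24 stayed within the interval of the value reported, or for counts within 1.5 times of it, and 21 moved. With only peaks of −log10 q of 5 or more, promoter peaks numbered 4826 and their genes 4646, the median fold was 6.28 and length 606.5 bp, 64.6% were centred within 100 bp of the TSS, and 20.7% of the genes had a further peak. With all protein-coding peaks centred within 1 kb of the TSS, there were 15216 peaks at 12067 genes, 332 at 10-fold or more, with a median length of 476 bp and 29.9% within 100 bp. With 1 peak per gene the median fold was 5.45, the length 478 bp and the share within 100 bp 60.7%. A limit of 8-fold gave 836 strong peaks, and a reach of 10 kb gave 34.0% of genes with a further peak. At that reach the share was 21.9% in genes with no promoter peak. Of these genes, those with a peak within 1 kb in another class stood at 31.9% and those with no peak within 1 kb at 16.3%. The GATA site was in 5.0% of promoters as AGATAA and 39.6% as the bare core, against 12.4% and 60.5% in genes with no promoter peak.

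Of settings chosen after seeing the data, all promoter windows of a gene gave 20.3%, and with them the site was in 36.7% of genes at 10-fold or more and 19.9% under it. Genes with no promoter peak held it in 33.6% by the same setting. Peaks whose annotated transcript is the credited gene's gave 62.8% within 100 bp and 54.6% with a further peak. Gene type from RefSeq moved no result. Of 32 gene lists, 31 kept their side of the share of all genes at the stricter q-value, the exception being Integrator subunits. With any class within 1 kb, 29 kept it, and Integrator subunits (71.4%), chief cells (60%) and parietal cells (60%) came to lie above the 57.4% of all genes. No paired analysis was possible because the pull-downs were pooled before peaks were called, and for the same reason no replicate could be left out. At 14 tags, the lowest summit of a promoter peak, the depth limits what could be called.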

Other observations

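Promoter peaks were spread unevenly over the chromosomes. On the X chromosome 170 of 905 protein-coding genes had one (18.8%, 16.3 to 21.5), against shares on the autosomes between 28.7% (chromosome 7) and 40.9% (chromosome 15). Of the 78 genes on the Y chromosome 0 had one. These genes were counted in GRCm38.p6 and the peaks called on mm9, and whether mm9 holds each of them was not checked. The sex of the mice, and so their number of X and Y copies, was not taken into account. Without olfactory and vomeronasal receptor genes, which are clustered on a few chromosomes, the X chromosome stood at 18.9% and the autosomes between 30.4% (chromosome 14) and 41.7% (chromosome 11). The median strongest fold per gene was 4.92 on the X chromosome and between 5.07 (chromosome 18) and 5.89 (chromosome 16) on the autosomes, and 1 gene on the X chromosome reached 10-fold.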
